A study of Schizosaccharomyces pombe with 5 samples.

Results

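Total RNA polymerase II (Pol II) was followed along an average fission yeast gene, from 1 kb before the transcription start site (TSS) to the middle of the gene, in wild-type cells and in cells without Upf1. The stretch was chosen by position alone. It comprises the 1001 positions of 1 bp from 1 kb upstream up to and including the TSS, and the first 50 of the 100 bins into which each gene was divided, which together are 50% of the positions of the deposited profile. Upf1 is an RNA helicase best known for nonsense-mediated decay of mRNA in the cytoplasm, and the study asked whether Pol II loading differs in its absence. The 2 wild-type and the 2 upf1Δ libraries came from haploid h- *Schizosaccharomyces pombe* strains that both carry Flag-tagged Rpb3 and the markers ade6-M216, ura4-D18 and leu1, and the deletion strain carries in addition upf1::hphMX6, in which a hygromycin resistance cassette replaces the gene. All cultures were grown in 400 ml at 30 °C to an OD600 of 0.8, cross-linked with formaldehyde and immunoprecipitated with the anti-Flag M2 antibody. A further library holds input chromatin, which the labels give as wild-type, but its title carries another strain code and another date code than any of the 4 immunoprecipitates. One library of each strain carries the earlier of the date codes in the labels (replicate 1) and one the later (replicate 2). Nothing in the labels says whether the libraries came from separate cultures, so the p-values measure only the spread between these libraries.

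The values are deposited as an average over genes, with 1 profile per library. The signal is coverage scaled by the aligned reads and, per the methods, by the input, and it has no stated unit. Values between about 0.9 and 1.1 are therefore relative levels, and a value of 1 marks no absolute amount of Pol II. Read counts are not part of the profile, so the depth is unknown and no counting error is given. With 2 libraries against 2, the smallest p of a two-sided exact permutation test is 0.333, and no difference between the strains could pass a threshold of 0.05. Differences are therefore described by the value of every library and by whether the strains overlap.

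Rpb3 is a core subunit of Pol II, so its ChIP signal covers polymerase in the preinitiation complex, at the promoter and in elongation alike. Fission yeast promoters are nucleosome-depleted stretches rich in A and T, on which general transcription factors place Pol II at a start site shortly downstream of the TATA element where there is one. After initiation Pol II passes from the promoter into the 5′ untranslated region (UTR) and then the coding sequence. Sonicated fragments extend beyond the bound protein, so polymerase at the TSS also gives signal upstream of it, and coverage that is not separated by strand also counts polymerase on the neighbouring gene.

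The upstream part of the profile covers the sequences from which transcription starts, and examples show what lies there. In the ASM294v3 annotation, 4512 protein coding genes have a 5′ UTR and thus a TSS that is set apart from the start codon. TATAAA or TATATA, searched on both strands, occurred in 56.6% of the 250 bp windows upstream of these sites. The matches were spread over the whole window and were most frequent between 20 and 40 bp upstream. The centre of a match lay from 30 to 40 bp upstream in 8.49% of the promoters and from 20 to 30 bp upstream in 6.43%, against a median of 3.52% over the windows of 10 bp. CAGTCACA, the homol D box of ribosomal protein genes in fission yeast, was found in 2.86% of the promoters. In 62 of the 129 promoters with a match, the third base of a match, counted towards the TSS, lay between 40 and 50 bp upstream. Of these 62, 49 belong to ribosomal protein genes by symbol. A tract of AAAAAAAA on either strand occurred in 17.97% and was more even along the window, with at most 1.35% of the promoters in any window of 10 bp against a median of 1.06%. The stretches below show both kinds of match in place, with the match in capitals. They were read from RefSeq's ASM294v3, which is another build than the EF2 build of the alignments.
met26, methionine synthase, chrI:1478347-1478376, plus strand: aatttctgagtaTATATAgtaaaggccccc
tpi1, triosephosphate isomerase, chrIII:939863-939892, plus strand: tccgctacgttaTATATAatgagcggacgg
rpl1101, a large subunit ribosomal protein, chrI:3346914-3346943, minus strand: tatacatgaaaCAGTCACAagcactgaacg
rps102, a small subunit ribosomal protein, chrI:898988-899017, minus strand: tcaaaaaaggaCAGTCACAaatagcacttt
The match of met26 runs from 39 to 34 bp upstream of the annotated TSS and that of tpi1 from 38 to 33 bp, while those of rpl1101 and rps102 run from 47 to 40 bp and from 44 to 37 bp. met26 and tpi1 are among the genes the study examined one by one. No other of these genes with an annotated 5′ UTR, nor rpb3 or upf1, had TATAAA or TATATA in the last 0.1 kb. The ribosomal protein genes are the first by symbol of each subunit, added after the matches were seen. The start site itself was an A in 70.9% and a G in 24.7% of the genes, and the base before it a T in 54.1% and a C in 42.6%. A match is a description of the letters, and the profile holds no value for any single gene, so the loss of upf1 in the deletion libraries could not be checked either.

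All 4 libraries had the same course, shown in the plot of the profiles. The signal fell slowly from 1 kb upstream to a shallow trough, rose in the last 0.2 kb before the TSS to a maximum beside it, fell again in the early gene, and climbed towards mid-gene. Over this stretch the single positions ranged from 0.876 to 1.103, whereas the whole profile reached 1.64 downstream of the gene, so the promoter peak was low beside the signal at the 3′ end.

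**Figure D1:**
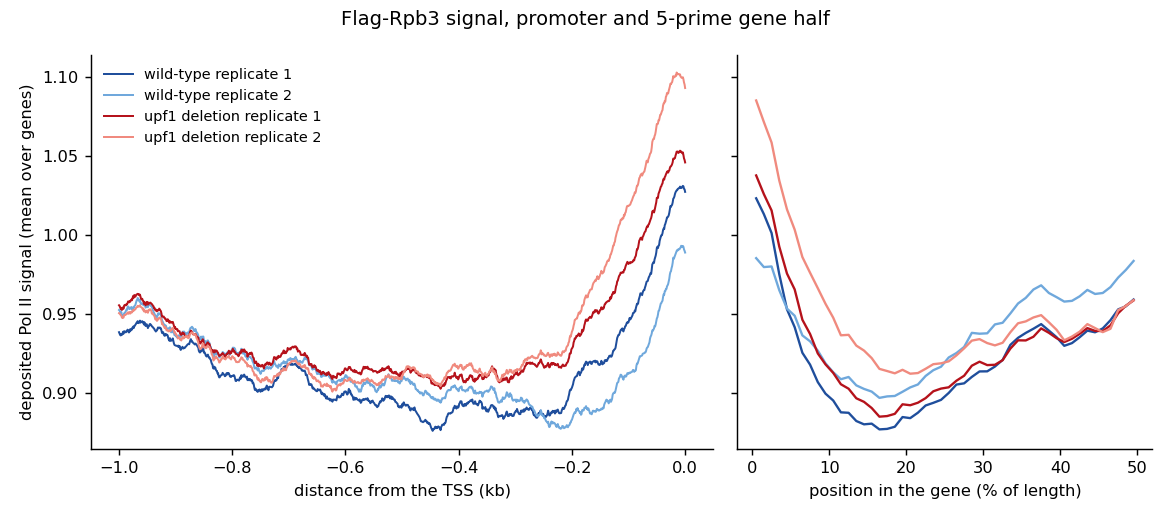
Deposited Pol II signal of each of the 4 libraries, averaged over genes, against the distance from the TSS in kb (left) and the position in the gene in percent of its length (right). Every library shows a trough, a maximum beside the TSS and a dip in the early gene body. The upf1Δ lines (upf1 deletion, red) run above both wild-type lines (blue) around the TSS, and wild-type replicate 2 is the highest line at mid-gene.

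Far upstream the strains were not separated. At the position 1 kb upstream the signal was 0.939 and 0.953 in wild-type replicates 1 and 2 and 0.956 and 0.951 in the upf1Δ replicates. As the mean from 1 to 0.5 kb upstream it was 0.914 and 0.925 for wild-type and 0.928 and 0.922 for upf1Δ, so that both upf1Δ libraries lay above the first wild-type library and on either side of the second. The difference of 0.00562 between the means did not exceed the wild-type SD of 0.00734 (exact permutation p = 0.667), and it was 0.0138 within the first date code and −0.00260 within the second. The fall was shared by all libraries. Between 0.7 and 0.6 kb upstream the signal was 0.905 and 0.915 for wild-type and 0.918 and 0.911 for upf1Δ.

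The trough was higher in both upf1Δ libraries. After a running mean of 50 bp, the lowest level in the 0.5 kb upstream of the TSS was 0.8804 and 0.8803 for wild-type and 0.908 and 0.909 for upf1Δ. The upf1Δ libraries lay 0.0281 or 3.19% above wild-type on average, against an SD of 0.000115 for wild-type and 0.00122 for upf1Δ (exact permutation p = 0.333). The difference was 0.0271 within the first date code and 0.0290 within the second. The place of the trough was less stable than its level. It lay 0.445 kb upstream in wild-type replicate 1 and 0.433 and 0.446 kb upstream in the upf1Δ libraries, but 0.224 kb upstream in wild-type replicate 2. The small wild-type SD thus compares lowest levels at different places. In fixed windows, the difference was 0.0178 against a wild-type SD of 0.0116 between 0.5 and 0.4 kb upstream. Between 0.3 and 0.2 kb it was 0.0330 against 0.00219.

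Near both places of the trough the signal of every library lay below its running mean of 100 bp. At 0.219 kb the running mean of 50 bp was already rising in wild-type replicate 1 and in both upf1Δ libraries. At 0.432 kb upstream the signal was 0.877 and 0.894 for wild-type and 0.903 and 0.905 for upf1Δ, and at 0.219 kb it was 0.888 and 0.878 for wild-type and 0.916 and 0.924 for upf1Δ. Wild-type replicate 2 was thus the only library with a lower signal at the nearer place than at the farther one. Between these places the strains moved apart, with a difference of 0.0183 at the farther and 0.0373 at the nearer point. Against a running mean of 100 bp, the notch at 0.219 kb had a depth of −0.00922 and −0.00645 for wild-type and −0.00876 and −0.0102 for upf1Δ. A small bump at 0.688 kb had a height of 0.00849 and 0.00493 for wild-type and 0.00751 and 0.00748 for upf1Δ. Such fine structure recurred from library to library, with correlations of the deviations from 0.728 to 0.889 between pairs of libraries over 901 positions. The positions are neighbours on the same genes, and a division by 1 input would give all libraries the same denominator, so these correlations are given without a test.

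From about 0.2 kb upstream the signal rose steeply. At 0.2 kb upstream it was 0.904 and 0.883 for wild-type and 0.928 and 0.939 for upf1Δ, and at 0.1 kb it was 0.945 and 0.912 for wild-type and 0.982 and 1.02 for upf1Δ. At 0.05 kb it had reached 0.992 and 0.947 for wild-type and 1.02 and 1.07 for upf1Δ. Both upf1Δ libraries were above both wild-type libraries at each of these distances, and the order from high to low was upf1Δ replicate 2, upf1Δ replicate 1, wild-type replicate 1 and wild-type replicate 2. The highest single position lay 0.004 and 0.007 kb upstream of the TSS in wild-type and 0.009 and 0.015 kb upstream for upf1Δ, with a signal of 1.03 and 0.993 for wild-type and 1.05 and 1.103 for upf1Δ.

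Over the last 0.1 kb the promoter-proximal level was 0.990 and 0.951 for wild-type and 1.02 and 1.07 for upf1Δ. Its mean came to 0.970 ± 0.0281 (SD, n = 2) for wild-type against 1.04 ± 0.0318 (SD, n = 2) for upf1Δ. The difference of 0.0727 or 7.49% was larger than either SD (exact permutation p = 0.333). Within the first date code it was 0.0304 and within the second 0.115, so both codes had the same direction and the second carried most of the size. Among the windows of 0.1 kb, the difference grew from 0.0102 between 0.6 and 0.5 kb to 0.0330 between 0.3 and 0.2 kb and 0.0571 between 0.2 and 0.1 kb upstream.

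**Figure D2:**
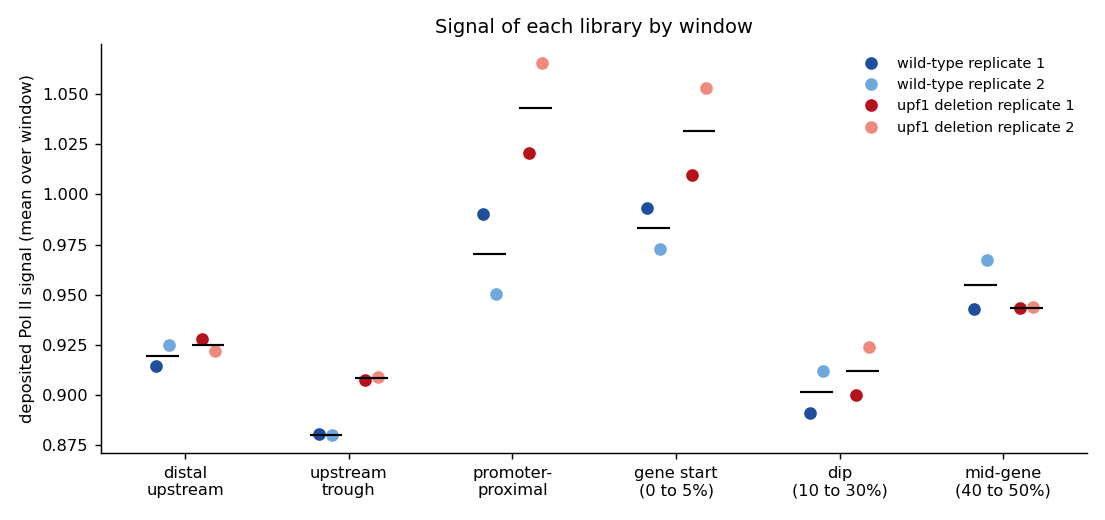
Mean signal of each library in 6 windows of the profile, with 1 point per library and a bar at the mean of each strain. The upstream trough is the lowest value after a running mean of 50 bp. The strains are apart at the trough, the promoter and the gene start, and overlap in the distal, dip and mid-gene windows. The vertical axis does not start at 0.

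Measured against the distal level of the same library, the rise was 0.0759 and 0.0258 for wild-type and 0.0925 and 0.143 for upf1Δ. The mean was 0.0509 for wild-type (SD 0.0354, n = 2) against 0.118 for upf1Δ (SD 0.0361, n = 2), and the difference was 0.0671 (exact permutation p = 0.333). It was 0.0165 within the first date code and 0.118 within the second, and without upf1Δ replicate 2 the difference fell to 0.0416 and without wild-type replicate 2 to 0.0420. Measured from the trough to the maximum instead, the rise was 0.147 and 0.108 for wild-type and 0.142 and 0.190 for upf1Δ, and the strains overlapped (exact permutation p = 0.667). The separation of the rise thus depended on how it was measured. These measures differ in their top, the mean of the last 0.1 kb or the maximum, as well as in their base. The trough was also higher in upf1Δ.

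The point of 50% height of the rise lay farther from the TSS in both upf1Δ libraries, while the foot of the rise was about the same in wild-type replicate 1 as in upf1Δ. The rise reached 50% of its height 0.0888 and 0.0637 kb upstream for wild-type and 0.104 and 0.115 kb upstream for upf1Δ, and stayed above that height up to the TSS, so this distance is also the width of the upstream side of the peak. The difference of 0.0334 kb was larger than the SD of 0.0177 kb for wild-type and 0.00761 kb for upf1Δ (exact permutation p = 0.333). It was 0.0155 kb within the first date code and 0.0513 kb within the second, and 0.0209 kb without wild-type replicate 2. At 25% of the height the distances were 0.170 and 0.111 kb for wild-type and 0.175 and 0.178 kb for upf1Δ, and at 75% they were 0.0491 and 0.0379 kb for wild-type and 0.0581 and 0.0636 kb for upf1Δ. At 25% wild-type replicate 1 was close to the upf1Δ libraries, and wild-type replicate 2 stood apart from the other 3 libraries. With each library on its own scale, 0.1 kb upstream lay at 0.447 and 0.301 of the rise in wild-type and at 0.521 and 0.573 for upf1Δ.

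**Figure D3:**
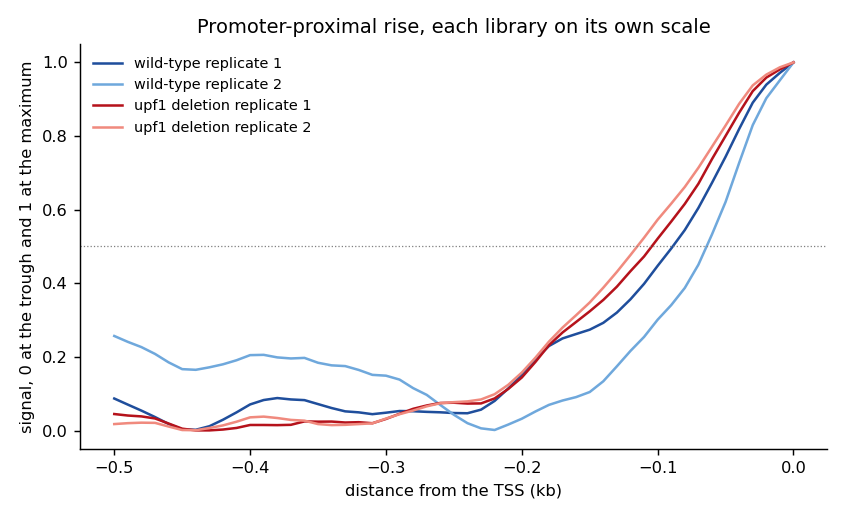
Running mean of 50 bp of each library against the distance from the TSS in kb, scaled so that the trough is 0 and the maximum 1, with a dotted line at 0.5. The upf1Δ libraries cross the dotted line at 0.104 and 0.115 kb and the wild-type libraries at 0.0888 and 0.0637 kb.

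The steepness did not separate the strains. In the steepest stretch of 100 bp the signal rose by 0.0990 and 0.0957 per 100 bp in wild-type and by 0.0847 and 0.102 for upf1Δ, so the upf1Δ libraries had both the lowest and the highest slope. The mean difference of −0.00385 was smaller than the SD of 0.0125 for upf1Δ (exact permutation p = 1). It was −0.0143 within the first date code and 0.00660 within the second. The centre of the steepest stretch lay 0.0535 and 0.0495 kb upstream for wild-type and 0.0575 and 0.0615 kb upstream for upf1Δ.

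The upf1Δ libraries were both higher than either wild-type library at 59.8% of the 1001 upstream positions and at 8 of the 50 bins, together 57.8% of the stretch, where over all positions of the profile the share was 32.8%. They lay below both at none of the upstream positions and at 4 of the 50 bins, together 0.381%, where the share over all positions was 8.37%. The shares over all positions include the stretch itself, and neighbouring positions share reads, so the shares were not tested. The positions above formed 3 runs. Short runs began 0.908 and 0.592 kb upstream, and the third ran unbroken from 0.52 kb upstream through the TSS and the first 8 bins.

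**Figure D4:**
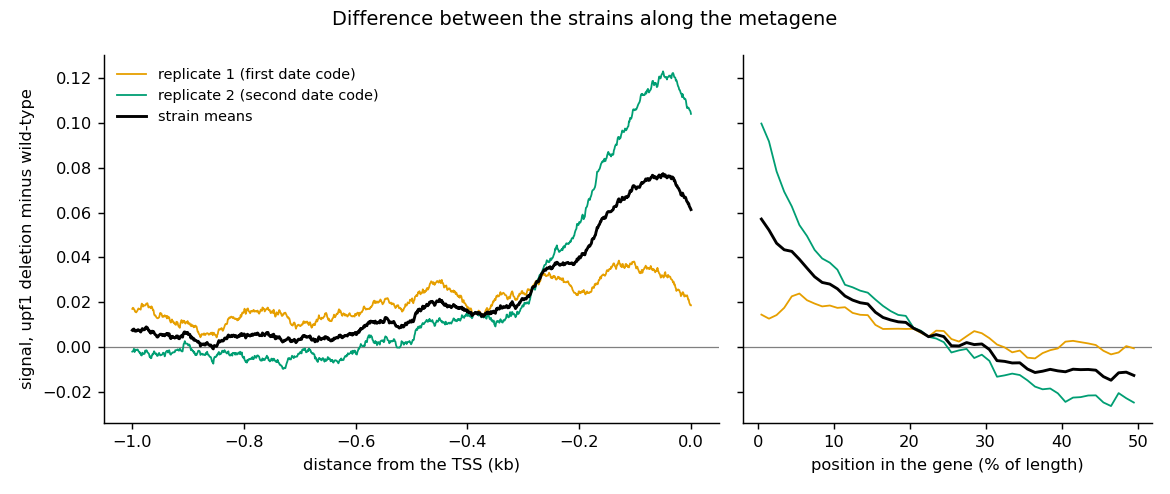
Signal of upf1Δ minus wild-type against the distance from the TSS in kb (left) and the position in the gene in percent (right), for the libraries of the first date code, those of the second, and the strain means. The difference of the means is largest, 0.0774, at 0.05 kb upstream, and is below 0 from 30% of the gene onwards. The line of the second code is far higher at the TSS than that of the first.

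The difference between the strain means was largest 0.05 kb upstream of the TSS, at 0.0774, and first reached 50% of this size 0.204 kb upstream. At that place of largest difference it was 0.0317 within the first date code and 0.123 within the second. On the gene side it fell from 0.0571 in the first bin to 0.0391 at 5%, 0.0260 at 10% and 0.00841 at 20% of the gene, and the difference of the means was below 0 from 30% onwards. The date codes did not share this sign throughout. At 30% of the gene the difference was 0.00394 within the first code and −0.00618 within the second, and at 40% it was 0.00239 and −0.0245.

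At the gene start, the first 5% of the gene, the signal was 0.993 and 0.973 for wild-type and 1.01 and 1.05 for upf1Δ. Both upf1Δ libraries were higher. The difference of 0.0483 or 4.92% was larger than the SD of 0.0144 for wild-type and 0.0309 for upf1Δ (exact permutation p = 0.333), and was 0.0163 within the first date code and 0.0804 within the second. Without upf1Δ replicate 2 it was 0.0265. From 5 to 10% of the gene the signal was 0.918 and 0.933 for wild-type and 0.939 and 0.978 for upf1Δ, still without overlap, and from 10 to 15% the second wild-type library, at 0.908, was above the first upf1Δ library, at 0.903. In percent of the gene, the signal fell below the 50% height at 4 and 7% in wild-type and at 4 and 5% for upf1Δ.

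The lowest bin of the early gene body began at 16% of the gene in both wild-type libraries and in upf1Δ replicate 1, and at 20% for upf1Δ replicate 2. Its signal was 0.877 and 0.897 for wild-type and 0.885 and 0.912 for upf1Δ. As the mean from 10 to 30%, the dip had 0.891 and 0.912 for wild-type and 0.9001 and 0.924 for upf1Δ, and the strains alternated. In both strains the replicate 2 library was the higher. The difference of 0.0104 was smaller than the SD of 0.0148 for wild-type and 0.0167 for upf1Δ (exact permutation p = 0.667), and it was 0.00895 within the first date code and 0.0118 within the second.

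The strains were apart at the promoter and overlapped at the dip, and the drop between these windows was larger in both upf1Δ libraries. From the promoter-proximal level to the dip the signal fell by 0.0991 and 0.0385 in wild-type and by 0.121 and 0.142 for upf1Δ. The difference of 0.0624 was larger than the SD of 0.0429 for wild-type and 0.0150 for upf1Δ (exact permutation p = 0.333). It was 0.0214 within the first date code and 0.103 within the second. Wild-type replicate 2, with the lowest promoter and the smallest drop, set much of the distance, and without it the difference was 0.0321.

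Towards mid-gene the signal recovered in every library, with a small bump at 37% of the gene. From 40 to 50% it was 0.943 and 0.967 for wild-type and 0.943 and 0.944 for upf1Δ, so that 3 libraries were close together and wild-type replicate 2 was higher (difference −0.0115, exact permutation p = 1). Both upf1Δ libraries lay below both wild-type libraries in the bins from 45 to 48% and in the last bin. In the last bin the signal was 0.9593 and 0.984 for wild-type and 0.9587 and 0.9589 for upf1Δ. The recovery from the dip to mid-gene was 0.0518 and 0.0551 for wild-type and 0.0431 and 0.0202 for upf1Δ. It was lower in both upf1Δ libraries, with a difference of −0.0218 against an SD of 0.00232 for wild-type and 0.0162 for upf1Δ (exact permutation p = 0.333). The difference was −0.00872 within the first date code and −0.0350 within the second, and −0.0104 without upf1Δ replicate 2.

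The ratio of the promoter-proximal level to the mid-gene level is taken within a library, so a factor that scales the whole library leaves it as it is. It was 1.05 and 0.983 for wild-type and 1.08 and 1.13 for upf1Δ. Wild-type replicate 2 was the only library with less signal at the promoter than at mid-gene. The difference of 0.0890 was larger than the SD of 0.0476 for wild-type and 0.0331 for upf1Δ (exact permutation p = 0.333). It was 0.0319 within the first date code and 0.146 within the second, and 0.0553 without wild-type replicate 2.

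The annotation gives the scale of these distances. Over the 5110 protein coding genes of ASM294v3 with complete flanks the median length is 1.77 kb, so 1% of a gene is 17.7 bp at the median and between 12.1 and 25.5 bp at the quartiles. The end of the dip bin at 17% then lies 0.301 kb into a gene of median length, and 0.205 or 0.433 kb at the quartiles. The signal upstream is in bp and that in the gene in percent, so the flanks of the peak cannot be compared in one unit. The genes behind the deposited average are not listed in it, and these values describe the annotation.

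The gene start and the dip fall on different parts of the transcript. The highest single position of every library lay upstream of the TSS, outside the transcript. In the genes with an annotated 5′ UTR, 74.98% of the bases of the first 5% of the gene are 5′ UTR, while from 15 to 20%, where the signal was lowest in 3 libraries, 73.6% are coding sequence, 12.5% intron and 13.7% 5′ UTR. The share of intron is highest in that window and falls to 4.78% from 45 to 50%. The median 5′ UTR is 0.0990 kb long, or 5.55% of the gene, and the start codon lies before 17% of the gene in 85.0% of these genes. Single genes depart from this picture. The 5′ UTR of pma1, the plasma membrane proton pump, takes 32.0% of the gene, so that the whole window of the dip lies within it, and that of SPBC609.01 takes 26.7%. In mug106 it takes 11.3%, in met26 8.25%, in tpi1 3.34%, in the deleted gene upf1 1.54%, in rpb3 0.463% and in ada2 0.181%. For ght5, a hexose transporter, the annotation begins at the start codon, so its annotated start marks no TSS.

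Base composition and neighbouring genes change over the same distances as the signal. Bases A and T made up 64.2% between 1 and 0.9 kb upstream, 70.1% between 0.15 and 0.1 kb, and 63.0% in the last 0.05 kb, where the signal was highest. Inside the gene they fell from 65.1% in the first 5% to 60.7% from 45 to 50%. Another protein coding gene covered 69.6% of the bases between 1 and 0.9 kb upstream, 47.8% between 0.5 and 0.4 kb and 12.6% in the last 0.1 kb, so the slow fall of the signal towards the trough ran beside a fall in the cover by neighbours. The upstream neighbour is transcribed away from the gene for 54.7% of the genes, at a median distance of 0.704 kb, and in the same direction for 45.3%, at a median distance of 0.314 kb. These properties belong to both strains alike, and their part in the shape of the profile was not tested.

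**Figure D5:**
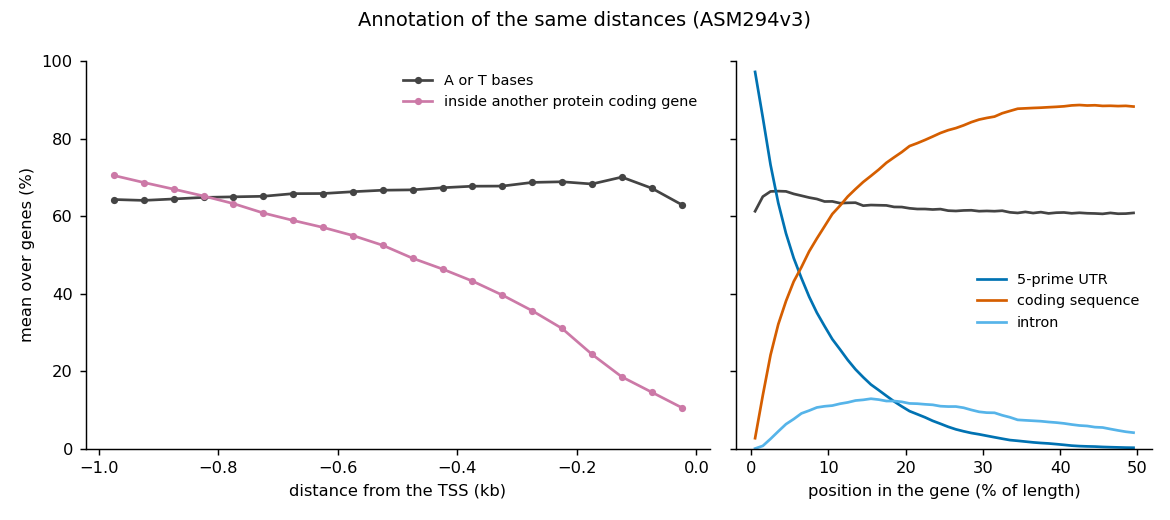
Left, share of A or T bases and share of bases inside another protein coding gene, in steps of 0.05 kb upstream of the TSS, over protein coding genes of ASM294v3. Right, share of A or T bases (grey), 5′ UTR, coding sequence and intron by percent of the gene. Cover by neighbours falls from 70.5% at the far end to 10.6% beside the TSS, and coding sequence replaces 5′ UTR over the first 20% of the gene.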

How the data were processed

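Total Pol II was measured by Flag-Rpb3 ChIP-seq in 2 wild-type and 2 upf1Δ libraries. Per the methods, the authors used Trimmomatic on single-end reads and Bowtie2 against the EF2 build, then scaled coverage at each base to the aligned reads and to an input. The deposited signal is this coverage averaged over genes. Its values do not show which scaling came last, and an error in the input would enter all libraries. Groups came from the genotype labels and replicate numbers from the date codes. All columns were used.

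Windows, a running mean of 50 bp and a slope fit over 100 bp gave 12 measures per library, compared between the strains by a two-sided exact permutation of the 4 libraries, and by an exact sign-flip test with the date code as block. No test was made across positions. The measures and lists were chosen with earlier results of these data known. The distances at 25 and 75% of the rise, single positions, rescaled rise, fine structure and homol D counts were added after the profiles were seen. Alternatives were 2 other scalings, other windows, the median, running means of 20 and 100 bp, slope windows of 50 and 200 bp, and leaving out each library. The distal and promoter-proximal levels, the slope, the half-height distance and the bin of the dip were tested on simulated data. The other measures were not. By the rule for named genes, those the study examined singly, rpb3 and upf1 serve only as examples of annotation. The input library was not used on its own. Annotation came from RefSeq ASM294v3, and no coordinates were carried to EF2. Python 3.11.15, NumPy 2.4.6 and matplotlib 3.10.9 were used.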

Additional observations from a re-analysis of the deposited data

Results flagged for a closer look

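For 2 of the 12 measures the libraries of the date codes moved in opposite directions, a difference that was not tested because each code holds 1 library of each strain. The distal upstream level was higher in upf1Δ by 0.0138 under the first code and differed by −0.00260 under the second. The steepest slope of the rise differed by −0.0143 per 100 bp under the first code and by 0.00660 under the second. The other 10 measures, of which the half-height distance and the promoter width are the same distance, had the same direction under both codes. Several of these 10 are built from the same promoter-proximal or dip level.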

How the results depend on the processing

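Of the 12 measures, 10 kept the direction of their mean difference under every alternative run, and 9 had no overlap between the strains. Some of these runs could not turn a direction. Both other scalings leave the half-height distance, the width and the ratio to mid-gene unchanged by construction. A block by date code leaves every mean difference unchanged. The half-height distance and the promoter width are the same distance and are both counted. The promoter-proximal level also enters the rise, the drop to the dip and the ratio to mid-gene. The dip level enters the drop and the recovery, so the counted measures are not independent. The measures that turned were the slope and the dip level. With a slope window of 200 instead of 100 bp, the difference in slope turned from −0.00385 to 0.0150, and without single libraries it ranged from −0.0127 to 0.00499, turning without upf1Δ replicate 1. The difference in dip level ranged from −0.00149 to 0.0222, turning without upf1Δ replicate 2, and without wild-type replicate 1, where it was −7.39e-05. The cause was not tested. Leaving out single libraries, the distal difference ranged from 0.000427 (without wild-type replicate 1) to 0.0108, the promoter-proximal difference ranged from 0.0502 to 0.0952, the trough from 0.0272 to 0.0289, the rise from 0.0416 to 0.0926, the half-height distance from 0.0209 to 0.0460 kb, the gene start from 0.0265 to 0.0702, the drop to the dip from 0.0321 to 0.0927, the recovery from −0.0333 to −0.0104, and the ratio to mid-gene from 0.0553 to 0.123. Dividing each library by its median or by its far flanks gave a promoter-proximal difference of 0.0749 and 0.0760, and 49.001 and 60.1% of positions with upf1Δ above.

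Under a replicate block by date code, the promoter-proximal difference of 0.0727 split into 0.0304 and 0.115 (exact sign-flip test, p = 0.5, the lowest value 2 pairs can give), and no measure could pass 0.05. Deviations from the strain means correlated at −0.833 between libraries of the same code, which with 2 libraries per strain cannot decide the pairing. A crossed pairing, chosen after seeing the data, also gave 0 calls of 12. The unknown depth, the single input and the average over genes set the limits here. Replicates 2 differ far more than replicates 1 around the TSS, and the profile cannot show how many genes carry a difference.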
